A study of Mus musculus with 12 samples.

Results

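The genes described here are 49 genes of protein folding, secretion and quality control in the endoplasmic reticulum (ER), among 17132 genes tested. They were chosen by name from the ER chaperones, the translocation and glycosylation machinery, ER-associated degradation and the sensors of the unfolded protein response. The rule picked genes by name and not by a measured value, but earlier results of these data were known when they were chosen. All 49 were found on the array, 46 under the symbols given for them and 3 (Sel1l, Sec11c and Os9) under an older symbol. They had 97 probes in all, of which the brightest stood for its gene, and those 49 probes were well above background on all 12 arrays and saturated on none.

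The study asked which genes the transcription factor Ebf1, which sets up and maintains the B lineage, controls in mature splenic B cells. C57BL/6 mice carried RERT-Cre, a Cre recombinase fused to an oestrogen receptor that tamoxifen activates, and were either homozygous for floxed Ebf1 (fl/fl) or heterozygous controls (+/fl). Every animal, controls included, received 3 mg of tamoxifen citrate on 4 days and was killed on day 10. The 4 groups were LPS-stimulated fl/fl cells, LPS-stimulated +/fl cells, resting fl/fl cells and resting +/fl cells, with 3 one-colour Agilent arrays in each. LPS is a bacterial ligand of Toll-like receptor 4 that makes B cells grow and divide, and the sources used here do not give its dose or time. The protocol names a B220+AA4.1- gate and one that is CD21lo as well, without saying which samples passed through which. The labels call the samples triplicates but do not state that each came from another animal, so p-values here reflect only how far these samples spread, and that spread may be technical.

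Proteins bound for the cell surface or for secretion enter the ER through the Sec61 channel, lose their signal peptide, receive N-linked sugars and fold with the help of Hspa5 (BiP), lectin chaperones and disulphide isomerases. Proteins that fail to fold are drawn back into the cytosol and degraded. When unfolded proteins build up, the sensors Ern1 (IRE1), Atf6 and Eif2ak3 (PERK) start the unfolded protein response, in which XBP1 and ATF6 raise the folding genes and PERK slows translation while favouring that of Atf4. B cells are known to enlarge this machinery as they turn into antibody-secreting plasma cells.

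The classical DNA element of this response, the ER stress response element (ERSE), is CCAAT, 9 bases of any kind and CCACG. It was searched on both strands in RefSeq promoter windows of build GRCm38.p6 that run from 250 bases before to 50 after a gene's start. Of the 49 genes 40 had at least 1 window, and Hyou1, Manf, Derl1, Atf6, Sec61a1, Ssr2, Spcs3, Sec11c and Lman1 had none. ERSE was present in 9 of these 40 genes and in 9 of their 45 windows (20.0%), against 39 of all 32851 windows in the table (0.119%). Because the list was chosen in part for this response and ERSE is its known element, this excess is no independent finding. The shorter ERSE-II (ATTGG, 1 base, CCACG) was in Dnajb11 and Herpud1, thus in 4.44% of the windows of these genes against 0.0365% of all windows. The element TGACGTGG bound by XBP1 and ATF6 was in 0 of the 45 windows and in 0.676% of all windows, and TGATGNAA, a composite ATF4 element, was in 1 of the 45 (Herpud1, 2.22%) and in 3.97% of all.

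The stretches below show the elements of genes whose LPS responses went opposite ways. They are written 5′ to 3′ on the strand of the gene, with both outer parts of the element in capitals. CGTGG followed by ATTGG is the same element read on the opposite strand. Hspa5 (chr2:34772013-34772055, plus strand), Canx (chr11:50325788-50325830, minus strand) and Calr (chr8:84847063-84847105, minus strand) encode chaperones that rose after LPS. Hsp90b1 (chr10:86705521-86705668, minus strand), which rose as well, held 2 elements.
Hspa5: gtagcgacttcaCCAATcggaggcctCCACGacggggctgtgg
Canx: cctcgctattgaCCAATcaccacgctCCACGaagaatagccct
Calr: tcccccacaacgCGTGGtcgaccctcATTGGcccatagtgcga
Hsp90b1: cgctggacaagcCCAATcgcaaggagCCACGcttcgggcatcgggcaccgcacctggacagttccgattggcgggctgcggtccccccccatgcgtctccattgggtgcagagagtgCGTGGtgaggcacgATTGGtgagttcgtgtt

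Dnajc3 (chr14:118937815-118937857, plus strand) and Syvn1 (chr19:6046520-6046562, plus strand) held an intact ERSE and fell after LPS in both genotypes. Derl3 (chr10:75893230-75893272, plus strand) passed the test in neither genotype. Herpud1 (chr8:94386365-94386399, plus strand), with the shorter ERSE-II, fell in fl/fl cells.
Dnajc3: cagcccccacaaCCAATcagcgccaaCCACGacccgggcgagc
Syvn1: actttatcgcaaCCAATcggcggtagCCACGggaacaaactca
Derl3: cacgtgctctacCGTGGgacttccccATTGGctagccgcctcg
Herpud1: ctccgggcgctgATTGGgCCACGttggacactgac

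The other 2 genes with an ERSE, Creld2 and Pdia6, rose in both genotypes. By role, ERSE stood in 4 of the 7 chaperones and co-chaperones with a window, both lectin chaperones, 1 of 7 isomerases and 2 of 7 degradation genes. It was in none of the 8 translocation genes, 5 oligosaccharyltransferase subunits and 4 sensors and factors with a window. In the fl/fl LPS response, 6 of the 26 genes with a window that rose had an ERSE, against 2 of the 8 that fell. In +/fl cells the counts were 6 of 29 and 2 of 6. The median log2 difference of the 11 genes with either element was 0.47 in fl/fl cells and 0.56 in +/fl cells, against 0.55 and 0.69 for the 29 genes without one.

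LPS raised most of these genes in both genotypes. Values are log2 signal, taken relative to the 75th percentile of each array, and changes are log2 differences unless given as a fold. A difference counts as passing the test at an adjusted p under 0.05 over all 17132 genes. In fl/fl cells 33 of the 49 were higher after LPS, 9 were lower and 7 did not pass, where 30.2% of all genes were higher and 25.4% lower (55.6% in either direction). In +/fl cells 36 were higher, 7 lower and 6 did not pass, where 30.7% of all genes were higher and 27% lower (57.7% in either direction). The median log2 difference of the 49 was 0.48 in fl/fl cells and 0.66 in +/fl cells, beside medians over all genes of 0.08 and −0.02. The responses of the 2 genotypes share no array, and 31 of the 49 were higher in both, 7 were lower in both and 0 passed in opposite directions. Across the 49 genes the 2 responses correlated with Pearson's r 0.91 and Spearman's rho 0.79, given as a description because genes are not independent. The arrays of the 2 states did not overlap for 34 genes that were higher and 9 that were lower after LPS in fl/fl cells (33.9% and 28.2% of all genes), and for 36 and 7 in +/fl cells (33.9% and 31.8%). The response in +/fl cells had the higher value for 31 genes and that in fl/fl cells for 18.

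**Figure D1:**
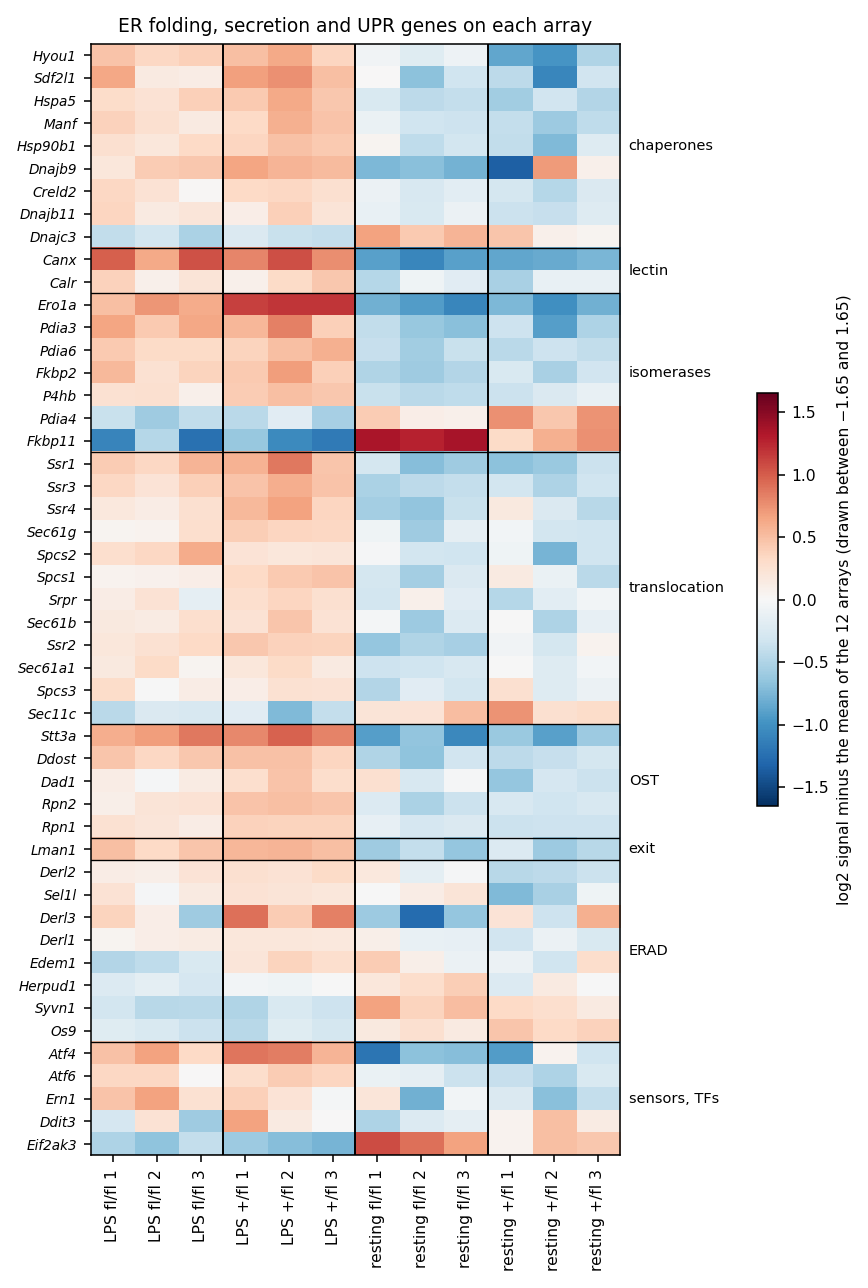
Log2 signal of each of the 49 genes on each of the 12 arrays, minus that gene's mean over the 12 arrays (blue below, red above that mean), with genes grouped by role. Most chaperone, translocation and glycosylation genes are higher on the 6 LPS arrays than on the 6 resting arrays, while Fkbp11, Eif2ak3, Syvn1, Dnajc3, Pdia4, Os9 and Sec11c run the other way.

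Hspa5, the HSP70 chaperone of the ER and the protein that holds the 3 stress sensors inactive, read 6.33, 6.28 and 6.42 on the LPS fl/fl arrays and 6.47, 6.67 and 6.48 on the LPS +/fl arrays. The resting arrays read 5.79, 5.61 and 5.64 in fl/fl cells and 5.46, 5.72 and 5.56 in +/fl cells. Every LPS array lay above every resting array, whichever the genotype. The log2 difference was 0.67 (SE 0.11, adjusted p = 4.0e-04) in fl/fl cells and 0.96 (SE 0.11, adjusted p = 3.03e-05) in +/fl cells, or 1.59-fold and 1.94-fold.

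Of the 9 HSP70 and HSP90 chaperones and co-chaperones 8 rose and 1 fell in fl/fl cells, and 7 rose and 1 fell in +/fl cells. The shares of all genes that rose and fell were 30.2% and 25.4% in fl/fl cells, and 30.7% and 27% in +/fl cells. Hyou1, the large HSP70 relative that reloads Hspa5 with ATP, read 3.21, 3.08 and 3.13 on the LPS fl/fl arrays and 3.23, 3.36 and 3.09 on the LPS +/fl arrays. Its resting readings were 2.67, 2.53 and 2.65 in fl/fl cells and 1.88, 1.76 and 2.24 in +/fl cells. The LPS arrays of the 2 genotypes overlapped, while the resting fl/fl arrays all lay above the resting +/fl arrays. Hyou1 rose by 0.52 (SE 0.13, adjusted p = 0.00709) in fl/fl cells and by 1.26 (SE 0.13, adjusted p = 2.03e-05) in +/fl cells. Hsp90b1, the HSP90 of the ER, rose by 0.48 (adjusted p = 0.0214) and 0.87 in fl/fl and +/fl cells. Its second probe, above background on all 12 arrays, read 0.01 in fl/fl cells and 0.75 in +/fl cells, and the fl/fl call held in 18 of 29 alternatives and not with the mean over probes. Manf, a stress-induced factor that binds Hspa5, rose by 0.53 and 0.93, and Sdf2l1, a partner of Hspa5 co-chaperones, by 0.63 (adjusted p = 0.0461) and 1.25. The fl/fl call of Sdf2l1 held in 12 of 29 alternatives. Creld2, a stress-induced ER protein, rose by 0.37 and 0.65 and Dnajb11, a co-chaperone that brings clients to Hspa5, by 0.39 and 0.55. Creld2 and Dnajb11 lost their calls in both genotypes after quantile normalization and in the deposited values. Dnajc3, another J-domain co-chaperone and an inhibitor of PERK, fell by 0.96 and 0.53, and its 4 probes all read lower after LPS.

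Dnajb9, a co-chaperone that helps Hspa5 to restrain IRE1, read 1.54, 1.78 and 1.80 on the LPS fl/fl arrays and 2.01, 1.91 and 1.87 on the LPS +/fl arrays. Its resting readings were 0.62, 0.66 and 0.57 in fl/fl cells, against 0.01, 2.06 and 1.45 in +/fl cells. The resting +/fl arrays thus spread more widely than the 4 groups lay apart. It rose in fl/fl cells (1.09, SE 0.40, adjusted p = 0.0402) and did not pass in +/fl cells (0.76, SE 0.40, adjusted p = 0.131). The fl/fl call held in 14 of 29 alternatives. The stress gene Ppp1r15a, chosen after its values were seen, spread in the same arrays, with 0.34, 4.29 and 3.61 in resting +/fl cells.

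The lectin chaperones hold newly glycosylated proteins while they fold, and both rose. Canx (calnexin), the membrane-bound one, read 6.32, 5.96 and 6.38 on the LPS fl/fl arrays and 6.13, 6.39 and 6.09 on the LPS +/fl arrays. Resting fl/fl cells read 4.42, 4.25 and 4.43, and resting +/fl cells 4.48, 4.50 and 4.57. The lowest LPS array was above the highest resting array by more than the whole range of either set. Canx rose 3.61-fold in fl/fl cells (log2 1.85, SE 0.13, adjusted p = 1.77e-06) and 3.23-fold in +/fl cells (log2 1.69, SE 0.13, adjusted p = 2.95e-06), and its other probes gave 1.95 and 2.02 in fl/fl cells and 1.79 and 2.01 in +/fl cells. Calr (calreticulin), the soluble one, rose by 0.47 (adjusted p = 0.0295) and 0.54 (adjusted p = 0.0151). These calls of Calr held in 18 and 22 of 29 alternatives.

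Among the 7 disulphide and proline isomerases 5 rose and 2 fell in each genotype. Of all genes 30.2% rose and 25.4% fell in fl/fl cells, and 30.7% and 27% in +/fl cells. Ero1a, the oxidase that recharges protein disulphide isomerase, read 0.02, 0.25 and 0.13 on the LPS fl/fl arrays and 0.65, 0.70 and 0.70 on the LPS +/fl arrays. Resting fl/fl cells read −1.28, −1.40 and −1.55, and resting +/fl cells −1.22, −1.49 and −1.27. All LPS arrays lay above all resting arrays, and the LPS fl/fl arrays all lay below the LPS +/fl arrays. Ero1a rose by 1.54 (SE 0.11, adjusted p = 1.77e-06) in fl/fl cells and by 2.01 (SE 0.11, adjusted p = 3.37e-07) in +/fl cells. The disulphide isomerases Pdia3, Pdia6 and P4hb rose by 1.15, 0.80 and 0.61 in fl/fl cells and by 1.18, 0.88 and 0.69 in +/fl cells, and the proline isomerase Fkbp2 by 0.91 and 0.87. Pdia4, another disulphide isomerase, fell by 0.65 and 1.04.

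Fkbp11, a proline isomerase of secretory cells, had the lowest LPS difference among the 49 genes in both genotypes. It read −1.52, −0.90 and −1.66 on the LPS fl/fl arrays and −1.05, −1.48 and −1.60 on the LPS +/fl arrays, against 0.92, 0.84 and 0.92 on the resting fl/fl arrays and −0.12, 0.15 and 0.32 on the resting +/fl arrays. Every LPS array lay below every resting array. Fkbp11 fell 4.77-fold in fl/fl cells (log2 −2.25, SE 0.21, adjusted p = 1.14e-05) and 2.82-fold in +/fl cells (log2 −1.49, SE 0.21, adjusted p = 1.79e-04). Its dimmer probe was above background on 3 of 12 arrays. With both probes averaged the differences were −1.05 (adjusted p = 0.234) and −1.77 (adjusted p = 0.0526), which ended both calls.

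**Figure D2:**
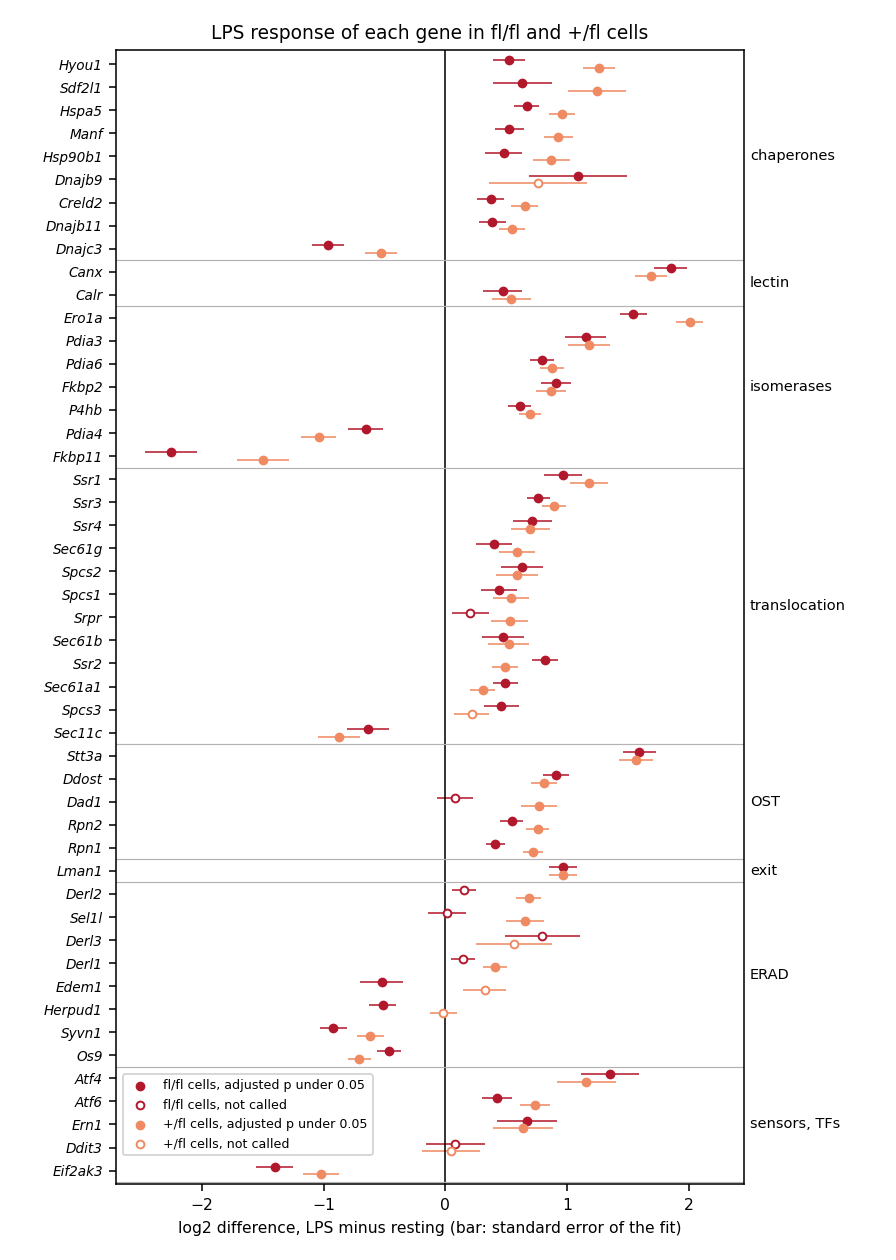
Log2 difference, LPS minus resting, of the 49 genes by role, with bars of 1 SE, in fl/fl cells (dark red) and +/fl cells (orange). Filled points passed the test. Canx, Ero1a and Stt3a lie farthest to the right and Fkbp11 farthest to the left in both genotypes.

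Most translocation genes rose, each by a smaller step than Canx or Ero1a. Of 12 genes for channel, signal-sequence receptors and signal peptidase, 10 rose and 1 fell in each genotype. Of all genes 30.2% rose and 25.4% fell in fl/fl cells, and 30.7% and 27% in +/fl cells. The 3 subunits of the Sec61 channel rose by 0.40 (Sec61g) to 0.49 (Sec61a1) in fl/fl cells. In +/fl cells they rose by 0.31 (Sec61a1) to 0.59 (Sec61g), although Sec61a1 there read −0.13 after quantile normalization and −0.12 in the deposited values. The fl/fl calls of Sec61g and Sec61b held in 13 and 16 of 29 alternatives, and the +/fl call of Sec61a1 in 17. Sec61g and Sec61b lost their calls in both genotypes after quantile normalization, in the deposited values and with median scaling. Ssr1, Ssr2, Ssr3 and Ssr4 form the complex beside the channel that helps weak signal sequences in. They rose by 0.97, 0.82, 0.76 and 0.72 in fl/fl cells and by 1.18, 0.49, 0.89 and 0.70 in +/fl cells. The signal peptidase subunits Spcs1 and Spcs2 rose by 0.44 and 0.63 in fl/fl cells and 0.54 and 0.59 in +/fl cells. The fl/fl call of Spcs1 held in 19 of 29 alternatives. Spcs3 rose only in the fl/fl comparison (0.46, adjusted p = 0.0206, against 0.22, adjusted p = 0.233) and Srpr, the receptor of the signal recognition particle, only in the +/fl comparison (0.21, adjusted p = 0.274, against 0.53, adjusted p = 0.0121). Neither difference between genotypes passed the interaction test. Sec11c, a catalytic subunit of the same peptidase, fell by 0.63 and 0.88.

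The oligosaccharyltransferase transfers the sugar chain onto asparagines of the incoming protein. It rose in 4 of 5 subunits in fl/fl cells and in all 5 in +/fl cells, where 30.2% and 30.7% of all genes rose. Its catalytic subunit Stt3a read 1.71, 1.80 and 1.99 on the LPS fl/fl arrays and 1.90, 2.09 and 1.93 on the LPS +/fl arrays, against 0.21, 0.46 and 0.05 in resting fl/fl cells and 0.50, 0.21 and 0.51 in resting +/fl cells. The LPS arrays did not overlap the resting arrays and the genotypes overlapped in both states. Stt3a rose 3.02-fold in fl/fl cells (log2 1.59, SE 0.14, adjusted p = 5.8e-06) and 2.96-fold in +/fl cells (log2 1.57, SE 0.14, adjusted p = 5.99e-06). Ddost rose by 0.91 and 0.81, Rpn2 by 0.55 and 0.76, and Rpn1 by 0.41 and 0.72. Dad1 was at 0.08 (adjusted p = 0.688) in fl/fl cells and rose by 0.77 (adjusted p = 0.00133) in +/fl cells. Lman1, the lectin that carries glycoproteins from the ER towards the Golgi, rose by 0.97 and 0.96 (adjusted p = 5.25e-05 and 4.84e-05).

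Of the 8 genes of ER-associated degradation 0 were higher, 4 were lower and 4 did not pass in fl/fl cells (median −0.23). In +/fl cells 3 were higher, 2 lower and 3 did not pass (median 0.36). Of all genes 30.2% were higher and 25.4% lower in fl/fl cells, and 30.7% and 27% in +/fl cells. The +/fl counts were near these shares. The fl/fl count depended on the processing, since Derl1, Derl2 and Derl3 passed as higher with normexp after local backgrounds were repaired (0.24, 0.28 and 0.62, adjusted p = 0.0496, 0.0267 and 0.0436). Syvn1 (HRD1), the ubiquitin ligase at the centre of the pathway, read 5.70, 5.54 and 5.55 on the LPS fl/fl arrays and 5.51, 5.75 and 5.66 on the LPS +/fl arrays, against 6.67, 6.37 and 6.51 in resting fl/fl cells and 6.33, 6.28 and 6.15 in resting +/fl cells. Every LPS array was below every resting array. Syvn1 fell by 0.92 (adjusted p = 6.25e-05) and 0.62 (adjusted p = 8.71e-04), and its dimmer probe read −0.51 and 0.25. Os9, a lectin that hands misfolded glycoproteins to the ligase, fell by 0.46 and 0.70. Its probes differed in sign in the fl/fl response, and its fl/fl call was lost with the mean over probes.

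For 0 of these 8 genes did the difference between genotypes pass the interaction test. Edem1, which marks misfolded glycoproteins by trimming their sugars, read 2.14, 2.21 and 2.38 on the LPS fl/fl arrays and 2.83, 2.99 and 2.90 on the LPS +/fl arrays, against 3.04, 2.72 and 2.53 in resting fl/fl cells and 2.53, 2.30 and 2.92 in resting +/fl cells. After LPS the fl/fl arrays all lay below the +/fl arrays, and in resting cells the genotypes overlapped. Edem1 fell by 0.52 (adjusted p = 0.0277) in fl/fl cells and was at 0.32 (adjusted p = 0.143) in +/fl cells, with an interaction of −0.85 (adjusted p = 0.128), and its other probes read 0.07 and −0.20 in fl/fl cells. Herpud1, an organiser of the ligase complex, fell by 0.51 (adjusted p = 0.00272) in fl/fl cells and was at −0.02 (adjusted p = 0.909) in +/fl cells. The +/fl value moved with the scaling, to −0.35 (adjusted p = 0.0344) after quantile normalization, −0.34 (adjusted p = 0.0383) in the deposited values and 0.22 (adjusted p = 0.637) with median scaling.

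Derl2, a derlin of the channel through which clients leave the ER, read 3.99, 3.97 and 4.10 on the LPS fl/fl arrays and 4.13, 4.10 and 4.18 on the LPS +/fl arrays. It read 4.04, 3.71 and 3.85 in resting fl/fl cells, against 3.41, 3.44 and 3.51 in resting +/fl cells. The resting +/fl arrays were the lowest of the 4 groups and overlapped no other group. Derl2 was at 0.15 (adjusted p = 0.232) in fl/fl cells and rose by 0.69 (adjusted p = 2.19e-04) in +/fl cells. Its second probe read 0.36 in fl/fl cells (limma's adjusted p over all probes 0.0375) and 0.64 in +/fl cells, and with the mean over probes Derl2 passed in fl/fl cells as well (0.26, adjusted p = 0.0478). Its relative Derl1 was at 0.15 in fl/fl cells and rose by 0.40 in +/fl cells, while its other probes read 0.39, 0.38 and −0.06 in fl/fl cells (limma's adjusted p over all probes 0.00609, 0.0145 and 0.709). The +/fl call of Derl1 was lost after quantile normalization (0.11, adjusted p = 0.355). Derl3 passed in neither (0.80 and 0.56, adjusted p = 0.0508 and 0.148) and in fl/fl cells passed in 9 of 29 alternatives. Sel1l, the adaptor of the ligase, was at 0.01 in fl/fl cells and rose by 0.66 in +/fl cells on its brightest probe, while its other probes read −0.37 and −0.33 in +/fl cells and the mean over its probes was −0.02.

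**Figure D3:**
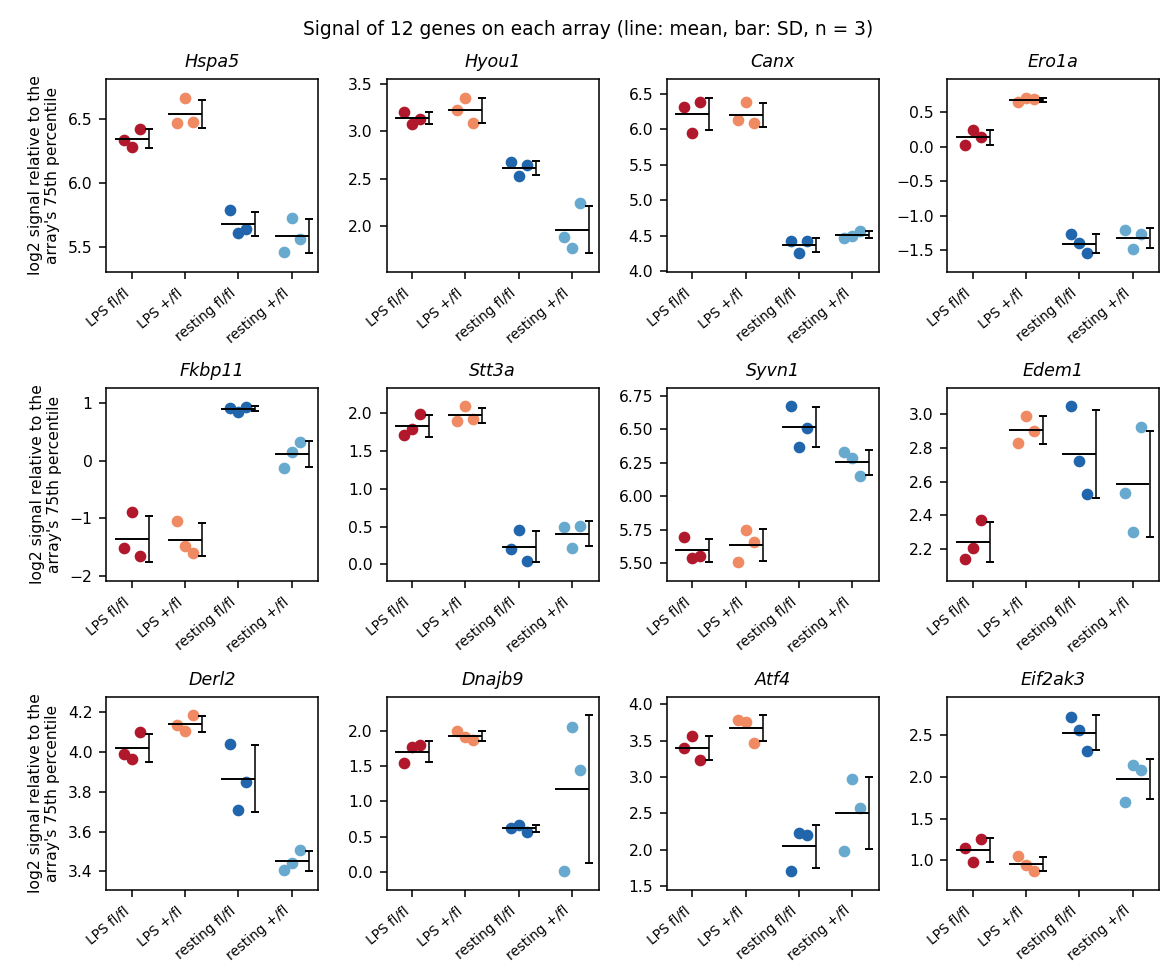
Log2 signal of 12 of the genes, relative to the 75th percentile of the array, each point 1 array, with the group mean as a line and bars of 1 SD (n = 3), for LPS fl/fl, LPS +/fl, resting fl/fl and resting +/fl cells. The LPS groups lie above the resting groups for Hspa5, Canx, Ero1a and Stt3a and below them for Fkbp11, Syvn1 and Eif2ak3, and the resting +/fl arrays are the lowest group for Hyou1 and Derl2.

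Of the 5 sensors and transcription factors 3 rose and 1 fell in each genotype. The shares of all genes that rose and fell were 30.2% and 25.4% in fl/fl cells, and 30.7% and 27% in +/fl cells. Atf4, the factor that PERK signalling favours, read 3.40, 3.57 and 3.24 on the LPS fl/fl arrays and 3.78, 3.76 and 3.46 on the LPS +/fl arrays, against 1.71, 2.23 and 2.21 in resting fl/fl cells and 1.99, 2.97 and 2.58 in resting +/fl cells. All LPS arrays lay above all resting arrays. Atf4 rose by 1.35 (SE 0.24, adjusted p = 8.44e-04) and 1.16 (SE 0.24, adjusted p = 0.0021). The sensor Atf6 rose by 0.43 and 0.74 in fl/fl and +/fl cells. The sensor Ern1 passed narrowly, by 0.67 (adjusted p = 0.0396) in fl/fl and 0.64 (adjusted p = 0.0479) in +/fl cells, and these calls held in 15 and 14 of 29 alternatives.

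Eif2ak3, which encodes PERK, went the other way. It read 1.14, 0.98 and 1.26 on the LPS fl/fl arrays and 1.05, 0.94 and 0.88 on the LPS +/fl arrays, against 2.72, 2.56 and 2.31 in resting fl/fl cells and 1.70, 2.15 and 2.09 in resting +/fl cells. Every LPS array was below every resting array, and the resting fl/fl arrays lay above the resting +/fl arrays. Eif2ak3 fell 2.64-fold in fl/fl cells (log2 −1.40, SE 0.15, adjusted p = 2.71e-05) and 2.03-fold in +/fl cells (log2 −1.02, SE 0.15, adjusted p = 2.22e-04). Ddit3 (CHOP), the death-promoting factor downstream of Atf4, passed in neither genotype (0.08 and 0.04, adjusted p = 0.794 and 0.891).

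Genes around these pathways gave further detail. Xbp1, the transcription factor that IRE1 activates by splicing, passed in neither LPS response (−0.04 and −0.29). Over all genes 30.2% were higher and 25.4% lower after LPS in fl/fl cells, and 30.7% and 27% in +/fl cells. Of 24 known ATF4 and integrated stress response targets 19 were higher in each LPS response, with medians of 1.58 and 1.50. Among them the ATF4 inhibitor Trib3 rose by 3.64 and 4.75 and the amino acid transporter Slc7a5 by 4.20 and 3.38. The serine and folate enzymes Shmt2, Mthfd2 and Psat1 rose by 2.75, 2.75 and 2.47 in fl/fl cells and by 2.74, 2.81 and 2.17 in +/fl cells. Of 37 other folding and degradation genes 18 were higher and 10 lower in fl/fl cells, and 20 and 10 in +/fl cells. The share of the 37 that was lower was near that of all genes. Txndc5, a disulphide isomerase, was among those that fell (−2.26 and −1.57), with Erp29 (−1.42 and −1.20), while the glucosidase Mogs (1.50 and 1.35) and Vcp, the ATPase that pulls clients out of the ER (1.16 and 1.26), rose.

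Of 30 other translocation and N-glycosylation genes 17 were higher and 4 lower in fl/fl cells, and 20 and 2 in +/fl cells. The shares over all genes were 30.2% and 25.4% in fl/fl cells, and 30.7% and 27% in +/fl cells. The sugar-chain enzymes Dpagt1 (1.60 and 1.63) and Alg8 (2.69 and 2.24) rose and the translocon protein Tram1 fell (−1.15 and −1.21). Of 34 ER to Golgi transport genes 18 were higher and 6 lower in fl/fl cells, and 21 and 2 in +/fl cells, with the SNARE Sec22b at 0.997 and 1.17. Of the plasma cell regulators, Irf4 rose by 1.80 and 1.75 and Prdm1 by 1.62 and 0.99. The plasma cell surface marker Sdc1 fell by 2.40 and 2.07 and the heavy chain gene Ighm by 1.01 and 0.81, and Jchain passed in neither.

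In the whole series the 4 groups separated first by LPS, with 61.6% of the variance on the first component. The array LPS fl/fl 2 stood apart, with 83.2% of spots well above background against 54.4% to 61.4% on the others, and without it 27 of the 49 genes were higher and 8 lower after LPS in fl/fl cells. Within slides, the median of the 49 genes in the LPS response was 0.60 and 0.50 on the slides that held fl/fl cells in both states and 0.72 and 0.68 on those that held +/fl cells in both. All 8 B cell markers were tested, and their summed level was 182 to 256 on the LPS arrays and 434 to 626 on the resting arrays. Of the 8 plasma cell markers 2 were higher and 2 lower in each LPS response, with medians of −0.02 in fl/fl cells and −0.68 in +/fl cells. These counts were near the shares of all genes, 30.2% higher and 25.4% lower in fl/fl cells and 30.7% and 27% in +/fl cells. All 4 NK cell markers were lower after LPS in both genotypes, and summed to 0.691 to 2.47 on the LPS arrays and 8.49 to 15.5 on the resting arrays. The 7 T cell markers summed to 6.51 to 9.84 on the LPS arrays and 16.8 to 30.1 on the resting arrays, and the 5 dendritic cell markers to 1.49 to 2.09 and 3.34 to 4.36. The 10 markers of monocytes, macrophages and neutrophils summed to 37.9 to 122 on the LPS arrays and 24.1 to 161 on the resting arrays, and the 7 erythroid markers to 4.95 to 34.7 and 8.37 to 101. Their part in the results was not tested, and in bulk cells fewer cells of a type and less RNA per cell cannot be told apart. Which part of Ebf1 Cre removes is not known from these sources, and its 2 probes therefore check nothing about deletion.

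The size of the LPS response depended on how arrays were scaled. Scaling by the array median shifted the median of all genes by −0.30 in fl/fl cells and by 0.24 in +/fl cells. Under it 4 of the 49 genes were higher and 5 lower in fl/fl cells (44.4% of those called were higher, against 78.6%). In +/fl cells 24 were higher and 1 lower (96% against 83.7%). With the deposited values 21 were higher and 9 lower in fl/fl cells, and 24 and 8 in +/fl cells. Relative to all genes the median of the 49 was higher by 0.41 to 0.77 in fl/fl cells and by 0.34 to 0.93 in +/fl cells over 5 scalings. These scalings were not independent checks of this distance. The main and the median scaling differ by a constant on each array, so it could not change between them (0.406 and 0.675 in both). The deposited values, already quantile normalised, gave 0.434 and 0.353, beside 0.418 and 0.344 after quantile normalization. The 9 genes that passed in fl/fl cells under all 5 scalings were Canx, Ero1a, Stt3a, Atf4, Fkbp11, Eif2ak3, Syvn1, Dnajc3 and Sec11c, and in +/fl cells 23 genes did.

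**Figure D4:**
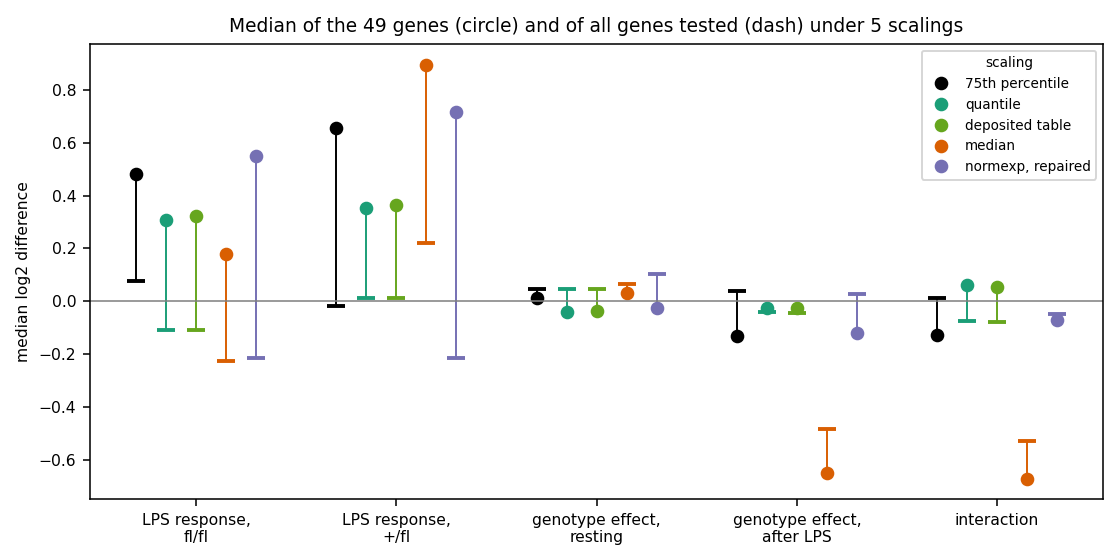
Median log2 difference of the 49 genes (circles) and of all genes tested (dashes) under 5 scalings of the arrays, for each LPS response, each genotype effect and the interaction. The 49 genes lie above all genes in both LPS responses under every scaling shown, and change sides of the all-gene median in the genotype effect after LPS and the interaction. The distance from circle to dash is the same by construction under the main and the median scaling. The deposited values were already quantile normalised.

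In resting cells few of these genes differed between fl/fl and +/fl. Of the 49 genes 2 were higher, 1 was lower and 46 did not pass, where 8.83% of all genes passed (4.64% higher and 4.19% lower). At an unadjusted p under 0.05 there were 12 of the 49, where 27.7% of all genes were. The median log2 difference was 0.01, beside 0.05 over all genes. The groups did not overlap for 10 genes that were higher and 8 that were lower in fl/fl cells, where 18.7% and 12.6% of all genes did so.

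Hyou1 was higher in resting fl/fl cells than in resting +/fl cells by 0.66 (SE 0.13, adjusted p = 0.0201), and by 0.91, 0.66 and 0.40 within the 3 slides. A second, dimmer Hyou1 probe, above background on 6 of 12 arrays, read −0.48, and with the probes averaged the difference was 0.09 (adjusted p = 0.801). Derl2 was higher by 0.41 (SE 0.10, adjusted p = 0.0366), and by 0.60, 0.30 and 0.34 within slides, but with the slide as a fixed block it no longer passed (adjusted p = 0.056). Ssr2 read 2.11, 2.25 and 2.19 in resting fl/fl cells, against 2.69, 2.46 and 2.80 in resting +/fl cells, 2 groups that did not overlap. It was lower by 0.47 (−0.47, SE 0.11, adjusted p = 0.0297), with −0.35, −0.44 and −0.60 within slides. Leaving out resting fl/fl 1 or resting +/fl 1 ended all 3 calls, and leaving out resting fl/fl 3 or resting +/fl 3 ended those of Derl2 and Ssr2, while that of Derl2 was lost without 9 of the 12 arrays in turn.

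Several genes just missed the threshold. Eif2ak3 was at 0.55 (adjusted p = 0.051), Fkbp11 at 0.78 (adjusted p = 0.0524), Sel1l at 0.55 (adjusted p = 0.0569), Derl3 at −0.99 (adjusted p = 0.0738) and Pdia4 at −0.45 (adjusted p = 0.0784). For Fkbp11 and Sel1l these values are of the brightest probe, and the probes of each gene differed in sign in this comparison. Of the 24 ATF4 targets 5 were lower in resting fl/fl cells, among them Atf3 (−2.93), Asns (−1.65) and Psat1 (−0.85), and none was higher. Over all genes 4.19% were lower and 4.64% higher. Atf3 spread widely in resting +/fl cells, with an SD of 1.45 against 0.21 in resting fl/fl cells. Outside the list Mzb1, an ER chaperone of antibody assembly, was lower in fl/fl cells by 1.86 (−1.86, adjusted p = 0.00551), and Xbp1 was at −0.02. Markers of other cells moved with this comparison. The myeloid markers summed to 44.7, 24.1 and 39.8 in resting fl/fl cells, against 161, 35.4 and 120 in resting +/fl cells, and all 10 had a lower mean in fl/fl cells, of which 1 passed the test. Erythroid markers summed to 101, 30.5 and 8.37 against 77.1, 35.8 and 59.2, with 0 of 7 past the test. Without resting +/fl 1 and 3, Hyou1 was at 0.86 (adjusted p = 0.0595), Derl2 at 0.42 (adjusted p = 0.244) and Ssr2 at −0.27 (adjusted p = 0.328).

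After LPS, Ero1a alone passed between genotypes, and 48 of the 49 genes did not, where 1.62% of all genes passed (0.858% higher and 0.765% lower). Ero1a was lower in LPS fl/fl cells than in LPS +/fl cells by 0.55 (−0.55, SE 0.11, adjusted p = 0.0469), and by 0.51 (−0.51) on the 1 slide that held both. Its second probe read −0.26. The call ended in 22 of 29 alternatives, 11 of which left out 1 array (each array but resting +/fl 2), with the value between −0.38 and −1.07. At an unadjusted p under 0.05 there were 5 of the 49, where 21.5% of all genes were. Of the 49 genes 42 had a log2 difference below 0 and 7 above 0, where 54% of all genes were above 0, but 27 were below 0 after quantile normalization and in the deposited values and 49 with median scaling. The median was −0.13 beside 0.04 over all genes, and it was above that of all genes by 0.02 after quantile normalization. The groups did not overlap for 1 gene that was higher and 20 that were lower in LPS fl/fl cells, where 15.3% and 17.9% of all genes did so. Edem1 was at −0.66 (adjusted p = 0.0852) and Rpn2 at −0.29 (adjusted p = 0.137). Of the other genes, Trib3 was lower in LPS fl/fl cells (−0.86, adjusted p = 0.0478), as was Mzb1 (−1.52, adjusted p = 0.0259). The myeloid markers summed to 62.9, 113 and 120 in LPS fl/fl cells, against 37.9, 60.3 and 122 in LPS +/fl cells, with 0 of 10 past the test. The NK cell markers summed to 2.47, 2.24 and 1.37 in LPS fl/fl cells, against 1.05, 0.928 and 0.691 in LPS +/fl cells. For all 4 every LPS fl/fl array lay above every LPS +/fl array (median log2 difference 1.29), and 1 of them, Klrk1, passed as higher. Of the 5 dendritic cell markers 1, Siglech, was higher, and of the 7 T cell markers 6 were above 0 and 0 passed, as did 0 of 7 erythroid markers. The B cell markers summed to 213, 182 and 223 in LPS fl/fl cells, against 256, 253 and 247 in LPS +/fl cells, with 6 of 8 below 0 and 1, Cd79a, lower. The part of these cells in this comparison was not tested.

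**Figure D5:**
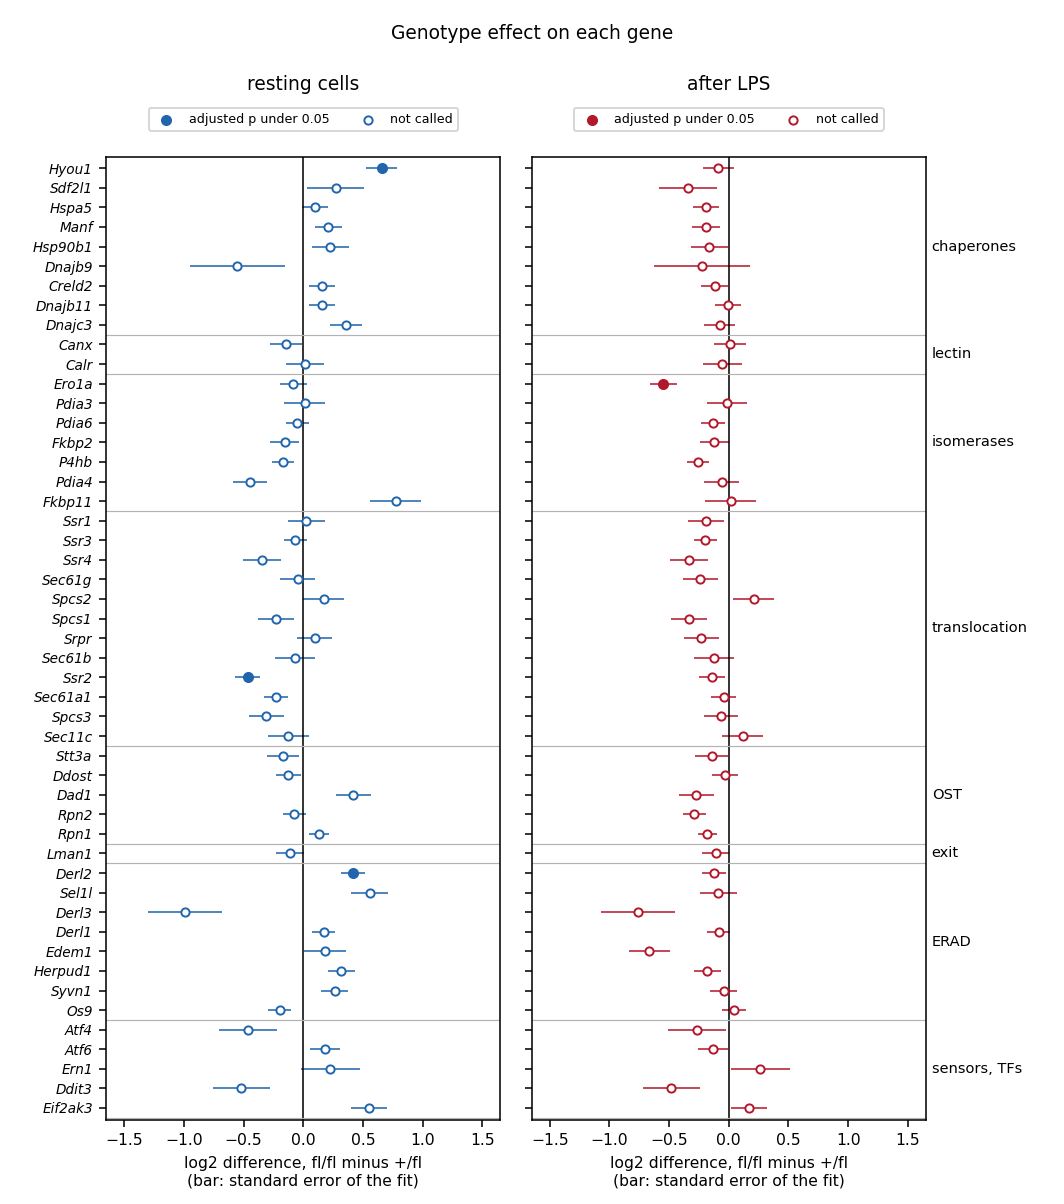
Log2 difference, fl/fl minus +/fl, of the 49 genes by role with bars of 1 SE, in resting cells (left) and after LPS (right). Filled points passed the test, which were Hyou1, Derl2 and Ssr2 in resting cells and Ero1a after LPS.

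Whether the LPS response itself differed between genotypes was tested by the interaction, the LPS response of fl/fl cells minus that of +/fl cells. In limma's test 0 of the 49 genes passed, where 0.163% of all genes did. At an unadjusted p under 0.05 the count was 11 of the 49, where 20.3% of all genes were, and with a trended, robust variance 1 gene, Hyou1, passed. By p-value the first were Hyou1 (−0.74, SE 0.19, adjusted p = 0.1), Derl2 (−0.53, adjusted p = 0.11), Edem1 (−0.85, adjusted p = 0.128), Dad1 (−0.69, adjusted p = 0.135) and Herpud1 (−0.50, adjusted p = 0.142). The probes of Hyou1 differed in sign in the interaction. The median over the 49 was −0.13, and it was 0.06 after quantile normalization and 0.05 in the deposited values.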

How the data were processed

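Scanner output of 12 one-colour Agilent mouse arrays was used. Values are intensity, the background-subtracted, Cy3 processed signal, per the file headers. Feature Extraction is version 9.5.3.1 per the file headers and 9.1 per the submitters' processing notes. The deposited value table is intensity too, with 1 common set of values in each column (median 30.8), so it was quantile normalised in a way not given in the sources used here. It was matched for 41174 of 41250 probes.

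Outlier-marked spots were left out and replicate spots averaged. The processed signal of the scanner output, not the deposited value table, was put on a log2 scale and reduced by each array's 75th percentile. A filter kept probes that at least 3 of 12 arrays measured well above background, for 17132 genes. Group means were fitted with limma 3.58.1 in R 4.3.3, over all 12 arrays, and p-values were adjusted over all genes by Benjamini-Hochberg (threshold 0.05). The number of arrays limits the precision.

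Within each role, up to 4 genes past the threshold and up to 2 others with the smallest p are named per comparison, with every gene accounted for. Genes and lists were chosen with earlier results of these data known. Alternatives covered background correction, scaling, filters, slide or replicate blocks, probe averaging, variance settings and leaving out arrays. Same-numbered samples did not deviate together (r −0.145 to 0.126). Whether the numbers pair samples stays unknown, because the labels do not say so and noise of the arrays could hide a shared origin. The procedure was tested on simulated data.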

Additional observations from a re-analysis of the deposited data

How the results depend on the processing

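Over 29 alternatives Canx and Stt3a passed in both LPS responses throughout. Among the 29, 1 only cut the list to 46 genes on the main fit, so its calls could not change. Over the 49 genes and 5 comparisons 6620 values stayed on their side of the threshold, most of them values that did not pass in the main fit either. Of the others 366 lost the call, 51 gained it and 4 values that had passed changed sign. Those 4 were Ern1 in the fl/fl LPS response with normexp (−0.12), Sec61a1 in that of +/fl cells with quantile normalization (−0.13) and the deposited values (−0.12), and Sel1l in +/fl cells with the mean over probes (−0.015). Of the 49 genes, normexp background correction called 4 in the fl/fl and 2 in the +/fl LPS response. With high local backgrounds first set to the array median, normexp called 44 and 42. Median scaling called 9 and 25, and the cause of the lower counts was not tested. For the genotype effect in resting cells the count was 0 with normexp, median scaling, no filter and only the arrays of the comparison, 1 (Dnajb9) without resting +/fl 1 and 3 (chosen after seeing the data), 5 with quantile normalization and the deposited values, 7 with normexp after local backgrounds were repaired and with a filter on all 12 arrays, and 8 with trended, robust variances. For the genotype effect after LPS the count was 0 with normexp, quantile normalization, median scaling, the deposited values, no filter, the slide as a fixed block, only the arrays of the comparison, the mean over probes, without resting +/fl 1 and 3 and without the pair of +/fl arrays whose names share a number. It was 2 with trended, robust variances and 3 with array weights, and the interaction gained 1 with the trended, robust variances. Leaving out 1 array at a time called 30 to 42 genes in the fl/fl LPS response, 40 to 43 in that of +/fl cells, 0 to 5 in the resting genotype effect (0 without resting fl/fl 1, 1 without resting +/fl 1 and 5 without LPS fl/fl 2), 0 to 1 after LPS and 0 in the interaction. With the replicate number as a block the counts were 42 and 42 in the LPS responses and 0 in both genotype effects and the interaction. Each gene of the list was well above background on all 12 arrays, yet most LPS calls were lost with normexp on unrepaired local backgrounds.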
